A study of Mus musculus with 12 samples.

Results

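The mRNAs of the 5 NF-kB transcription factor subunits, Nfkb1, Nfkb2, Rel, Rela and Relb, were followed in stromal cells grown from mouse small intestine, labelled as intestinal myofibroblasts, with and without LPS, to ask which of them were held at a steady level and which were induced. The members were taken by gene symbol from the 23329 genes listed in each library, and 5 of 5 were listed and passed the filter on low counts that left 13038 genes to test. The 12 mRNAseq libraries fell into 4 groups of 3: embryonic and adult cells, each with LPS or with PBS. All mice were C57BL6/J, no genetic alteration is named, embryos were at E14.5 and the age of the adult mice is not given in the sources used here. Cells were cultured to passage 2 or 3 after the epithelium was shaken off, and were then given LPS of Escherichia coli for 6 h at a concentration stated as 10 µg/µl, or the vehicle PBS. The adult cultures came from 3 mice, whereas each embryonic culture pooled 6 embryos, so an embryonic value is an average over embryos. A single concentration and time were measured in passaged cells.

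NF-kB factors are dimers of these 5 proteins, which share a DNA-binding and dimerization region called the Rel homology domain. RelA, RelB and c-Rel (the products of Rela, Relb and Rel) carry a transactivation domain, whereas Nfkb1 and Nfkb2 encode the precursors p105 and p100, which are processed to p50 and p52. LPS acts through TLR4 on the canonical arm, in which the IKK complex marks IkB proteins for degradation and frees mainly RelA and p50. In the non-canonical arm, p100 is processed and p52 with RelB enters the nucleus. Control of these factors is largely by protein localisation and turnover, which mRNA levels do not measure.

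Promoter sequences are shown here because kB sites are the sequence that NF-kB dimers bind. A RefSeq promoter window of 300 bases, from 250 before to 50 after a transcription start, was at hand for 3 of the 5 members (build GRCm38.p6). Windows for Nfkb1 and Relb were not analysed here. Capitals mark matches, on either strand, to the kB consensus decamer, of which several can overlap in 1 stretch.
Nfkb2 window 1 (chr19:46304487-46304786, plus strand): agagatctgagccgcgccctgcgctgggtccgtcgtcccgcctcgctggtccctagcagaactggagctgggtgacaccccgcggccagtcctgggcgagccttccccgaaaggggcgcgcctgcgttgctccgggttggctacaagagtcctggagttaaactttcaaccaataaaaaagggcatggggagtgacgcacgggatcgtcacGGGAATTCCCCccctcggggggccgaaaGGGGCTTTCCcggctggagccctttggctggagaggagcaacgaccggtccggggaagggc
Nfkb2 window 2 (chr19:46305445-46305744, plus strand): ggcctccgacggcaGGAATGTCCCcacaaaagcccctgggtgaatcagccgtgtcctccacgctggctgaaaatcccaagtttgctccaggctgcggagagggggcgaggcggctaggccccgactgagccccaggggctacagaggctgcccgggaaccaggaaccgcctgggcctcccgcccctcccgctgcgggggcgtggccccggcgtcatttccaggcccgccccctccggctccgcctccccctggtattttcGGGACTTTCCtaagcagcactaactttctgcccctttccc
Rel (chr11:23770920-23771219, minus strand): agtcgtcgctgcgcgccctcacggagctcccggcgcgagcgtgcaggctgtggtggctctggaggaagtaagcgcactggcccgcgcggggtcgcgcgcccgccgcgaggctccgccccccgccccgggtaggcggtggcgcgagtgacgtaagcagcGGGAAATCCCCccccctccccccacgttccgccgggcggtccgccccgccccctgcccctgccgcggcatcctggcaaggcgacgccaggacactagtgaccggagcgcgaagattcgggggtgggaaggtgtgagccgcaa
Rela (chr19:5637291-5637590, plus strand): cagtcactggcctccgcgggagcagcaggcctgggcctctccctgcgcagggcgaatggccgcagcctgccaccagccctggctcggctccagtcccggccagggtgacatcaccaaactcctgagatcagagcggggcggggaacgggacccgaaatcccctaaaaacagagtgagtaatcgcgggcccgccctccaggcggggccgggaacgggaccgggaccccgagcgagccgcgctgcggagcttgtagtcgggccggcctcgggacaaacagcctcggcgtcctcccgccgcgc

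The decamer was found in 2 of the 3 members with a window, Nfkb2 and Rel. Windows 1 and 2 of Nfkb2 each held 2 stretches, and another window of this gene (chr19:46305680-46305979) held 1, which is the downstream stretch of window 2. In Rel there was 1 stretch, beginning 92 bases before the start, and Rela had no match. Of all 32851 windows of this length, 8.46% held the decamer, and 9.55% of 27025 genes had it in at least 1 window. The stricter motif GGGANNTTC, searched on both strands and in part overlapping the decamer, was present in Nfkb2 only. It was in 3.94% of all windows and in 4.47% of genes. A match describes the letters and does not show a bound site, and the absence of one says only that these letters are not in this window.

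Between 18850224 and 32672370 counts per library fell on genes, on the strand that the library chemistry reads, with TMM factors from 0.899 to 1.10. The opposite strand held 1.14% to 1.98% of the gene counts. A floor of 3 counts corresponded to between 0.0897 and 0.145 CPM (counts per 1000000 of the TMM-adjusted library total), for counting error only, and no member fell below 51 counts in any library. Fibroblast or myofibroblast markers summed to between 22587 and 41641 CPM over 10 genes in every library, and none of the 10 was at the floor throughout any group. Macrophage markers were also present, at 166 to 2204 CPM over 12 genes in embryonic and 9.84 to 116 CPM in adult libraries, and none of the 12 was at the floor throughout any group. Endothelial markers reached 1750 CPM in adult libraries and 34.7 CPM in embryonic ones, epithelial or mesothelial markers 967 and 465 CPM, and lymphocyte markers no more than 0.419 CPM. In RNA from such mixtures, fewer cells of a type and less RNA per cell cannot be told apart.

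All 5 subunit mRNAs were called higher with LPS in embryonic stroma, and 4 of 5 in adult stroma. The exception, Rel, rose 2.26-fold in adult stroma without being called. Of all tested genes, 2.67% were called higher in embryonic stroma and 0.598% in adult (edgeR's quasi-likelihood test, Benjamini-Hochberg adjusted p under 0.05). This fit did not use the pairing of same-numbered libraries. With a block for the replicate number inside each stage the same members were called, against 9.43% and 4.69% of all genes. Relb, Nfkb2 and Nfkb1 rose between 4.13-fold and 6.54-fold in both stages and Rel 5.05-fold in embryonic stroma, whereas Rela rose 1.78-fold in embryonic and 1.98-fold in adult stroma. Rela also had the highest level per transcript length in cells given PBS. With a minimum log2 fold change of 2 added to the call, 4 members remained in embryonic stroma (all but Rela) and 3 in adult stroma (Nfkb1, Nfkb2 and Relb), where 1.87% and 0.422% of all genes passed. Groups did not overlap for 5 of 5 members in embryonic and 4 of 5 in adult stroma, against 7.58% and 9.1% of all genes with every LPS library above every PBS library.

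**Figure D1:**
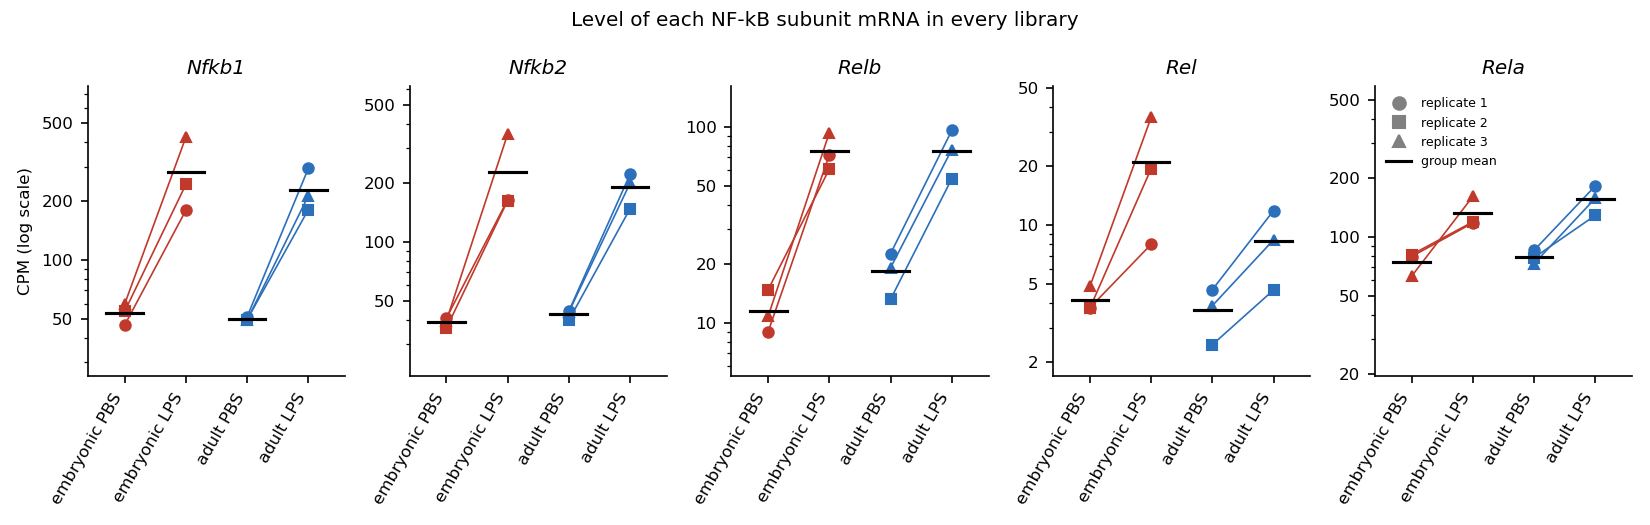
CPM (log scale) of each subunit mRNA in the 12 libraries, with lines joining LPS and PBS libraries that share a replicate number, symbols for the number and black bars for group means. Every line rises, and of the 5 panels only that of Rel shows adult LPS values that reach down to the adult PBS values.

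Nfkb1 encodes p105, the precursor of p50, and lies on chromosome 3 (135584655 to 135691969, minus strand, GRCm38.p6). In embryonic stroma it stood at 180, 243 and 424 CPM in LPS replicates 1, 2 and 3 and at 46.6, 54.8 and 59.7 CPM with PBS. In adult stroma the LPS libraries held 294, 181 and 213 CPM and the PBS libraries 51.4, 49.6 and 49.4 CPM. The PBS values were alike in the stages, all LPS values lay far above them, and embryonic LPS replicate 3 was the highest of the 12. The log2 fold change was 2.40 (SE 0.30, edgeR adjusted p = 0.00296) in embryonic and 2.19 (SE 0.29, edgeR adjusted p = 0.0101) in adult stroma. All 6 of 6 same-numbered pairs went up. Another annotated gene, Gm43430, overlaps Nfkb1 by 3897 bases on the same strand, and its effect on the counts was not tested.

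Nfkb2 encodes p100, which acts as an IkB-like inhibitor until it is processed to p52 (chromosome 19, 46300994 to 46312400, plus strand). Embryonic LPS libraries held 164, 162 and 354 CPM, and embryonic PBS libraries 40.7, 36.2 and 39.5 CPM. The adult values were 221, 147 and 199 CPM with LPS and 44.3, 39.7 and 43.8 CPM with PBS. As with Nfkb1, embryonic LPS replicate 3 stood above the rest and the treatments did not overlap. It rose by 2.54 on the log2 scale in embryonic (SE 0.29, edgeR adjusted p = 0.00227) and by 2.15 in adult stroma (SE 0.29, edgeR adjusted p = 0.0101). On the other strand Nfkb2 overlaps the lncRNA gene AC114539.1 by 2021 bases and Psd by 314 bases. The opposite-strand share of Nfkb2 was 2.94% to 5.12% in embryonic PBS libraries against 1.02% to 2.19% with LPS. The opposite-strand counts themselves were 73, 36 and 48 with PBS and 48, 105 and 128 with LPS, in replicates 1, 2 and 3. In adult libraries the shares overlapped, at 1.08% to 1.31% with PBS and 0.75% to 1.91% with LPS. Which gene these reads came from was not tested. Counts on either strand together gave the same calls for Nfkb2.

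Relb encodes RelB, the partner of p52 in the non-canonical arm (chromosome 7, 19606217 to 19629438, minus strand). With LPS it reached 72.2, 61.0 and 93.4 CPM in embryonic and 96.0, 54.4 and 76.6 CPM in adult libraries. With PBS it was at 9.01, 14.8 and 10.8 CPM in embryonic and 22.6, 13.2 and 19.1 CPM in adult libraries. Levels after LPS were thus alike in the stages, whereas 2 of the 3 adult PBS libraries exceeded all embryonic ones. The rise was 2.71 on the log2 scale (SE 0.29, edgeR adjusted p = 0.00188) in embryonic and 2.05 (SE 0.29, edgeR adjusted p = 0.0128) in adult stroma. In the fit without a block, the adult calls of Nfkb1, Nfkb2 and Relb were lost without any 1 of the 3 adult PBS libraries. Their log2 fold changes then stayed between 1.86 and 2.22 and the edgeR adjusted p lay between 0.0543 and 0.0965. No fit with the replicate block lost these calls.

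Rel encodes c-Rel, the subunit best known from lymphoid and myeloid cells (chromosome 11, 23736847 to 23770969, minus strand). Its mRNA was the scarcest of the 5. Embryonic libraries held 7.99, 19.4 and 35.5 CPM with LPS and 3.80, 3.78 and 4.87 CPM with PBS. Adult libraries held 11.9, 4.67 and 8.43 CPM with LPS and 4.69, 2.46 and 3.89 CPM with PBS. The embryonic LPS libraries were spread more than 4-fold yet stayed above PBS, whereas adult LPS replicate 2 fell just below adult PBS replicate 1. The log2 fold change was 2.34 (SE 0.52, edgeR adjusted p = 0.0423) in embryonic and 1.17 (SE 0.51, edgeR adjusted p = 0.818, unadjusted p = 0.0419) in adult stroma, although 3 of 3 adult pairs rose, by 1.33, 0.91 and 1.10. With a block for the replicate number inside each stage, the adult value was 1.14 (SE 0.31, edgeR adjusted p = 0.0814).

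In the fit without a block, the embryonic call of Rel was lost when single libraries were left out. It was lost without any 1 of 10 of the 12 libraries, embryonic LPS replicate 1 and adult LPS replicate 2 being the others, with log2 fold changes from 1.68 to 2.47 and adjusted p from 0.0517 to 0.168. The lowest value, 1.68, was that without embryonic LPS replicate 3. In the losses without an adult library the log2 fold change stayed at 2.34. The call was also lost without the filter on low counts (edgeR adjusted p = 0.0502), over a range of 0.00029 to 0.168 in all 25 alternatives. With the replicate block, embryonic Rel stood at 2.13 (SE 0.30, edgeR adjusted p = 0.00325). It stayed called there with any 1 culture left out.

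Rela encodes RelA or p65, the main transactivating subunit of the canonical arm (chromosome 19, 5637442 to 5648134, plus strand). It was measured at 118, 119 and 160 CPM in embryonic LPS and at 79.2, 81.0 and 62.9 CPM in embryonic PBS libraries. The adult libraries held 182, 128 and 157 CPM with LPS and 85.2, 78.1 and 72.8 CPM with PBS. Every LPS library was above every PBS library in both stages, but by a smaller margin than for Nfkb1, Nfkb2 or Relb. The log2 fold change was 0.83 (SE 0.17, edgeR adjusted p = 0.0280) in embryonic and 0.98 (SE 0.17, edgeR adjusted p = 0.0323) in adult stroma. In the fit without a block, the embryonic call was lost without adult LPS 3, adult PBS 3, embryonic LPS 3 or any embryonic PBS library. The log2 fold change was then 0.64 to 0.90 and the edgeR adjusted p 0.0508 to 0.118. The adult call was lost without adult LPS 1 or 3, any adult PBS library or embryonic PBS 1 (0.86 to 1.04, edgeR adjusted p 0.0507 to 0.211). With the block, the adult call was also lost without adult replicate 1 or 3 (edgeR adjusted p 0.116 and 0.118).

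**Figure D2:**
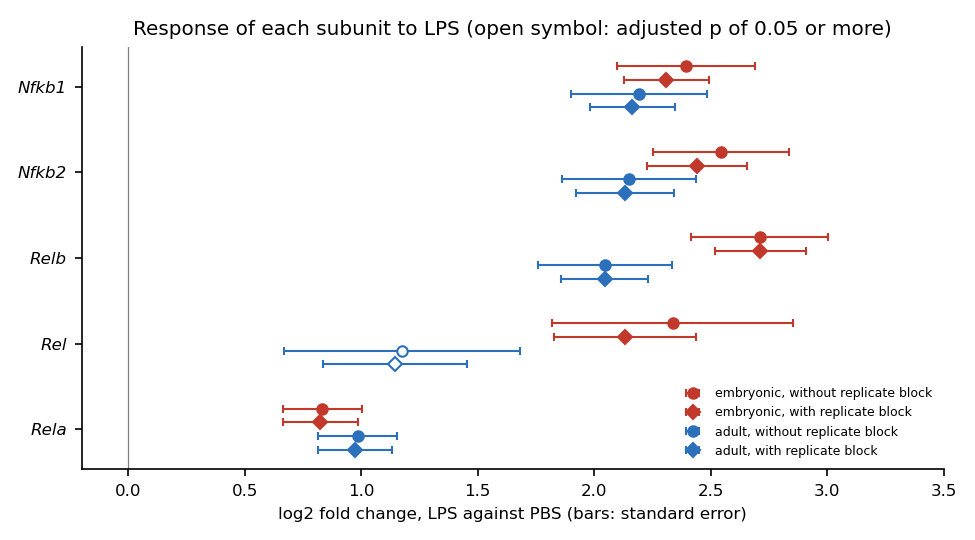
Log2 fold change of LPS against PBS for each subunit, with standard errors, in embryonic (red) and adult (blue) stroma, fitted without (circles) and with (diamonds) a block for the replicate number. Open symbols, at adjusted p of 0.05 or more, occur only for Rel in adult stroma (1.17 and 1.14), and Rela lies lowest of the filled ones at 0.82 to 0.98.

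That Rela responded less than Nfkb1, Nfkb2 and Relb was tested within libraries by log2 ratios of CPM, which do not depend on scaling between libraries. The ratio of Nfkb1 to Rela rose by 1.34 on the log2 scale with LPS (mean of the 2 stages), that of Nfkb2 by 1.39 and that of Relb by 1.48. Each gave p = 0.005 in an exact two-sided permutation test over 400 arrangements of LPS and PBS within stages, the smallest p it allows (adjusted p = 0.00667 over the 4 ratios). The ratio of Rel to Rela differed by 0.72 with exact permutation p = 0.1, and by 1.27 in embryonic but 0.16 in adult stroma. All 4 ratios were higher with LPS in 6 of 6 pairs. For Rel the pair of adult replicate 3 was nearly tied, at -4.22 with LPS and -4.23 with PBS on the log2 scale. An exact sign-flip permutation over the pairs gave p = 0.0312 for each ratio, Rel included, which is the smallest that 64 flips allow.

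Compared per length, Rela had the highest mean level with PBS in both stages. With LPS the ranges of the highest members overlapped in both stages. Within every LPS library Nfkb1 lay above Nfkb2 when merged exons were taken as length. In every embryonic LPS library Nfkb1 also lay above Rela, though by little in replicate 1 (43.6 against 43.3 CPM per kb). In adult LPS libraries the order of Nfkb1 and Rela varied between replicates. In CPM per kb of merged exons, embryonic PBS cells held Rela at 27.4, Nfkb1 at 13.0, Nfkb2 at 9.20, Relb at 5.22 and Rel at 0.556, and no neighbours in this order overlapped. Adult PBS cells had the same order, at 29.0, 12.2, 10.1, 8.28 and 0.493, where Nfkb2 and Relb overlapped. With LPS the embryonic order became Nfkb1 at 68.5, Nfkb2 at 53.7, Rela at 48.7, Relb at 34.2 and Rel at 2.81, of which the first 3 overlapped with their neighbours. In adult LPS cells the order was Rela at 57.3, Nfkb1 at 55.5, Nfkb2 at 44.8, Relb at 34.2 and Rel at 1.12, and only Rel did not overlap with its neighbour. Levels of Nfkb2 rest on the length taken, since its merged exons span 4221 bases and its longest RefSeq-matched transcript 3141. With longest transcripts as lengths, Nfkb2 had the highest mean with LPS, at 72.1 CPM per kb in embryonic and 60.2 in adult cells. Rela stayed highest with PBS in both stages.

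As a share of the summed CPM per kb of the 5 mRNAs, Rela made up 49.3% ± 4.76 (SD, n = 3) in embryonic PBS and 48.3% ± 2.48 in adult PBS cells. With LPS its share was 24.3% ± 3.67 in embryonic and 29.9% ± 1.44 in adult cells, and the libraries of the treatments did not overlap in either stage. Relb moved from 9.38% ± 1.96 to 17.0% ± 3.14 in embryonic and from 13.7% ± 2.74 to 17.6% ± 1.15 in adult cells. Rel did not exceed 1.63% in any library. The sum of the 5 ranged from 52.5 to 65.1 CPM per kb in the 6 PBS libraries and from 151 to 293 in the 6 LPS libraries.

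**Figure D3:**
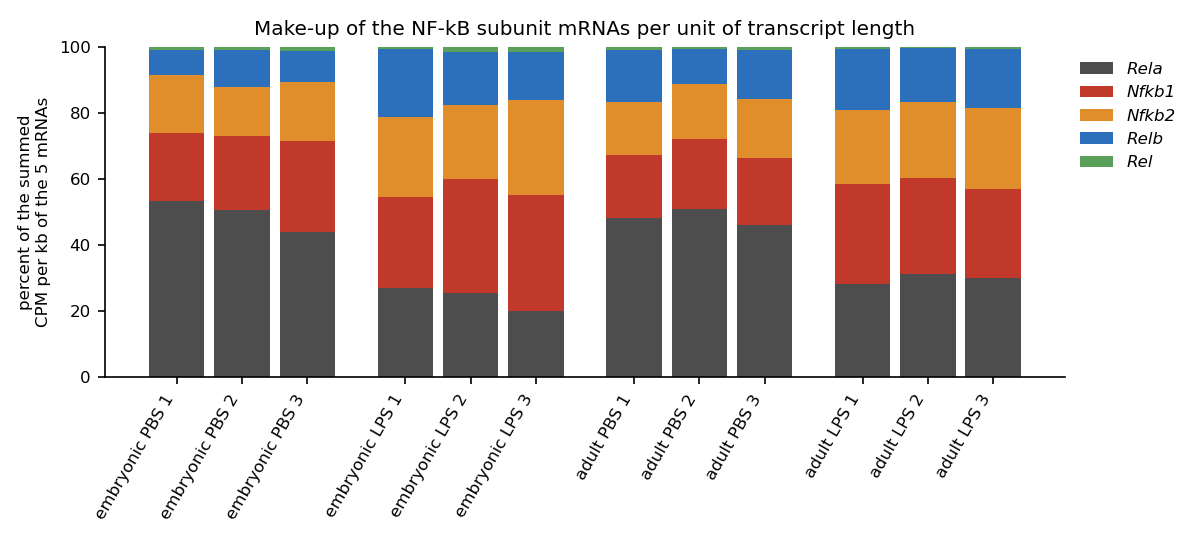
Percent of the summed CPM per kb of the 5 subunit mRNAs held by each, in each of the 12 libraries. Rela (grey) takes 44.1% to 53.3% of every PBS bar and 20.2% to 31.3% of every LPS bar, and Rel (green) is a sliver throughout.

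The interaction term asked whether a response to LPS differed between the stages. No member was called: by edgeR 0 of 5 passed, 0 at an unadjusted p under 0.05 and 0 by DESeq2, and edgeR called 0 of all tested genes (0%), where DESeq2 called 25. The difference in log2 fold change, embryonic minus adult, was 1.16 for Rel (95% interval -0.41 to 2.73), 0.66 for Relb (-0.20 to 1.53), 0.40 for Nfkb2 (-0.48 to 1.27), 0.20 for Nfkb1 (-0.68 to 1.09) and -0.15 for Rela (-0.68 to 0.38). These intervals leave room for differences of more than 2-fold for Rel, Relb, Nfkb2 and Nfkb1. With the replicate block, 0.844% of all genes were called and again no member, Relb differing by 0.67 (SE 0.26, unadjusted p = 0.0338, edgeR adjusted p = 0.495) and Rel by 0.99 (SE 0.43, unadjusted p = 0.0510, edgeR adjusted p = 0.563).

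Nor did any member pass in the comparison of stages. With PBS, 4.08% of all genes were called in either direction and 0 of 5 members by edgeR or DESeq2, with 1 at an unadjusted p under 0.05. This was Relb, lower in embryonic than in adult cells by a log2 difference of -0.67 (SE 0.28, unadjusted p = 0.0373, edgeR adjusted p = 0.216). With LPS, 5.31% of all genes were called and again 0 of 5 members by either tool, with Rel at an unadjusted p under 0.05. Rel was 1.33 higher on the log2 scale in embryonic cells (SE 0.50, unadjusted p = 0.0234, edgeR adjusted p = 0.152). Libraries of the stages overlapped for 5 of 5 members in both comparisons, where 24.3% (PBS) and 25.1% (LPS) of all genes did not overlap.

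Macrophage markers differed between libraries in the same order as several subunits. In embryonic LPS replicates 1, 2 and 3 the 12 markers summed to 166, 857 and 1749 CPM, the order of Rel, Nfkb1 and Rela but not of Nfkb2 and Relb. Of the pathway list genes described below, Nfkbia, Bcl3, Ikbke, Ikbkb and Cd40 ran in that order too, and the others did not. Any gene can share an order of 3 libraries, and the share of all genes that did so was not counted. In adult LPS replicates they summed to 116, 9.84 and 32.2 CPM, the order of all 5 subunits. That adult order was not particular to macrophage markers. Fibroblast or myofibroblast markers (40375, 22587 and 39761 CPM) and epithelial or mesothelial markers (967, 226 and 419 CPM) shared it. Endothelial markers (13.9, 1681 and 337 CPM) did not. The macrophage marker sums with PBS were 208, 349 and 2204 CPM in embryonic and 106, 11.4 and 28.9 CPM in adult libraries. Nfkb1 followed that order in embryonic cells. In adult cells Rel, Nfkb2 and Relb did so, as did the fibroblast or myofibroblast and the epithelial or mesothelial markers. Between treatments none of the 12 macrophage genes was called in either stage by edgeR or DESeq2, with 0 at an unadjusted p under 0.05. The block called 3 of them higher in embryonic stroma (Ptprc, Fcer1g and Emr1, the older symbol of Adgre1). The part of macrophages, or of any other cell type, in the level or the response of the subunits was not tested. Adult replicate 2 had the lowest macrophage and the highest endothelial marker sums. There the log2 difference of LPS and PBS was 1.86 for Nfkb1, 1.89 for Nfkb2, 2.04 for Relb, 0.91 for Rel and 0.72 for Rela. In adult replicates 1 and 3 it was 2.51 and 2.11 for Nfkb1, 2.32 and 2.18 for Nfkb2, and 2.08 and 2.00 for Relb. For Rel it was 1.33 and 1.10 in these replicates, and for Rela 1.09 and 1.11.

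**Figure D4:**
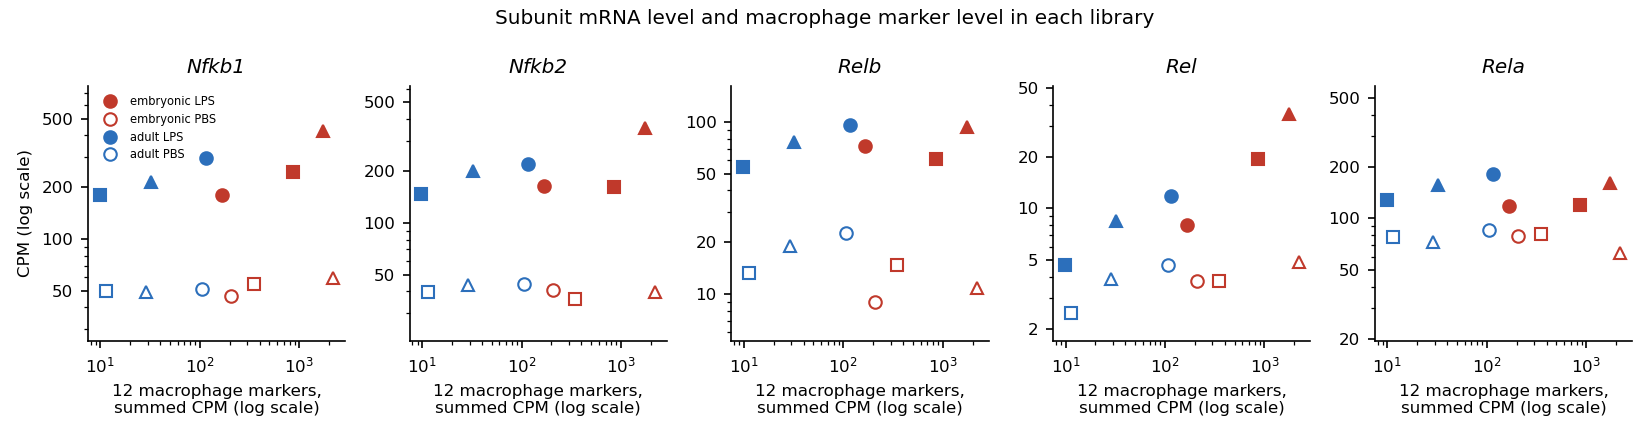
CPM of each subunit mRNA against the summed CPM of 12 macrophage markers, both on log scales, for the 12 libraries (filled LPS, open PBS, red embryonic, blue adult, circle, square and triangle for replicates 1, 2 and 3). Within each stage the LPS values of Rel (7.99 to 35.5 CPM in embryonic and 4.67 to 11.9 CPM in adult stroma), Nfkb1 (180 to 424 and 181 to 294 CPM) and Rela (118 to 160 and 128 to 182 CPM) go up with the markers. Embryonic PBS values lie between 3.78 and 4.87 CPM for Rel and between 46.6 and 59.7 CPM for Nfkb1. In adult LPS libraries the fibroblast or myofibroblast and the epithelial or mesothelial markers, not drawn here, ran in the same order of replicates. The share of all genes that ran in the order of the macrophage markers was not counted.

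The rest of the pathway was described with 5 lists of 41 genes, all of them tested. In embryonic stroma 22 of the 41 were called higher and 0 lower, and in adult stroma 13 higher and 0 lower, against 2.67% and 0.598% of all genes called higher. With the replicate block these counts were 26 and 24, against 9.43% and 4.69%. Over all tested genes the median was -0.00027 on the log2 scale in embryonic and -0.0075 in adult cells.

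The IkB proteins, which hold NF-kB dimers in the cytoplasm or, as Bcl3 does, act with p50 and p52 in the nucleus, had medians of 4.21 in embryonic and 3.22 in adult stroma on the log2 scale. In embryonic stroma 5 of 6 were called higher, and in adult stroma 3 of 6, or 6 with the block. Nfkbie, encoding IkB epsilon, rose from 3.73 ± 1.22 to 79.2 ± 37.0 CPM (SD, n = 3) in embryonic and from 6.30 ± 0.665 to 71.9 ± 19.2 CPM in adult cells. Nfkbia, encoding IkB alpha, rose from 18.5 ± 3.13 to 358 ± 186 CPM and from 29.0 ± 2.67 to 292 ± 142 CPM. Bcl3 was called in embryonic stroma (log2 fold change 4.26, SE 0.66) and stood at 3.36 (SE 0.63, edgeR adjusted p = 0.0512) in adult stroma.

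Among the 5 IKK kinases, which phosphorylate IkB proteins or related substrates, 1 was called higher in embryonic stroma and 0 in adult stroma by edgeR, where 1 was at an unadjusted p under 0.05, and DESeq2 called 2 and 1. Ikbke, an inducible IKK-related kinase, rose from 8.80 ± 3.61 to 62.4 ± 39.2 CPM in embryonic cells and stood at 10.2 ± 2.58 and 37.4 ± 6.09 CPM in adult cells, where the block called it too. Ikbkb, the canonical IkB kinase beta, had log2 fold changes of 0.71 (SE 0.19, edgeR adjusted p = 0.0993) and 0.39 (SE 0.19, edgeR adjusted p = 0.997). The medians of the list were 0.60 and 0.26.

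Of the 8 genes of the non-canonical arm, 4 were called higher in embryonic and 3 in adult stroma. The medians of this list were 0.75 and 0.58 on the log2 scale, and its lowest values were -0.13 and -0.40, not called. Birc3, a ubiquitin ligase that limits the kinase NIK, rose by 3.40 (SE 0.31) and 2.45 (SE 0.30) on the log2 scale. Cd40, a receptor that feeds this arm, rose by 4.36 (SE 0.83) in embryonic stroma and stood at 3.51 (SE 0.84, edgeR adjusted p = 0.133) in adult stroma, where the block called it. Its level was 220 ± 192 CPM in embryonic LPS and 16.9 ± 4.88 CPM in adult LPS cells. Cd40 is also expressed by macrophages, whose part in it was not tested.

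The 9 genes of IkB turnover and coactivators, which degrade IkB proteins or help NF-kB activate transcription, had 0 members called in either stage by edgeR, with or without the block, or by DESeq2. At an unadjusted p under 0.05 embryonic stroma had 1 and adult stroma 0, and the medians were 0.02 and 0.03. Fbxw11, a subunit of the ligase that recognises phosphorylated IkB, had the highest value in embryonic stroma at 0.47 (SE 0.14, edgeR adjusted p = 0.152). Crebbp, a histone acetyltransferase, was at -0.18 (SE 0.21) in embryonic stroma.

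The early target list of 13 genes had the highest medians, 4.98 in embryonic and 3.32 in adult stroma, with 12 and 7 genes called higher, or 13 and 13 with the block. The neutrophil chemokine gene Cxcl1 rose from 0.131 ± 0.0462 to 401 ± 175 CPM in embryonic and from 0.713 ± 0.202 to 854 ± 223 CPM in adult cells. Cxcl2, a related chemokine gene, rose to 503 ± 353 CPM from 0.432 ± 0.299 in embryonic cells and to 155 ± 31.1 CPM in adult cells, where no PBS library held more than 3 counts. Csf2, encoding GM-CSF, was at 0 counts in the 3 embryonic PBS libraries and at 6.42 to 16.5 CPM with LPS. Its mean with LPS, 11.9 CPM, was 131-fold the mean floor of 3 counts per library, a lower bound for the change of the mean. In adult cells Csf2 rose to between 10.6 and 58.4 CPM from at most 1 count. Setting these genes to their lower bounds left both medians as they were.

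**Figure D5:**
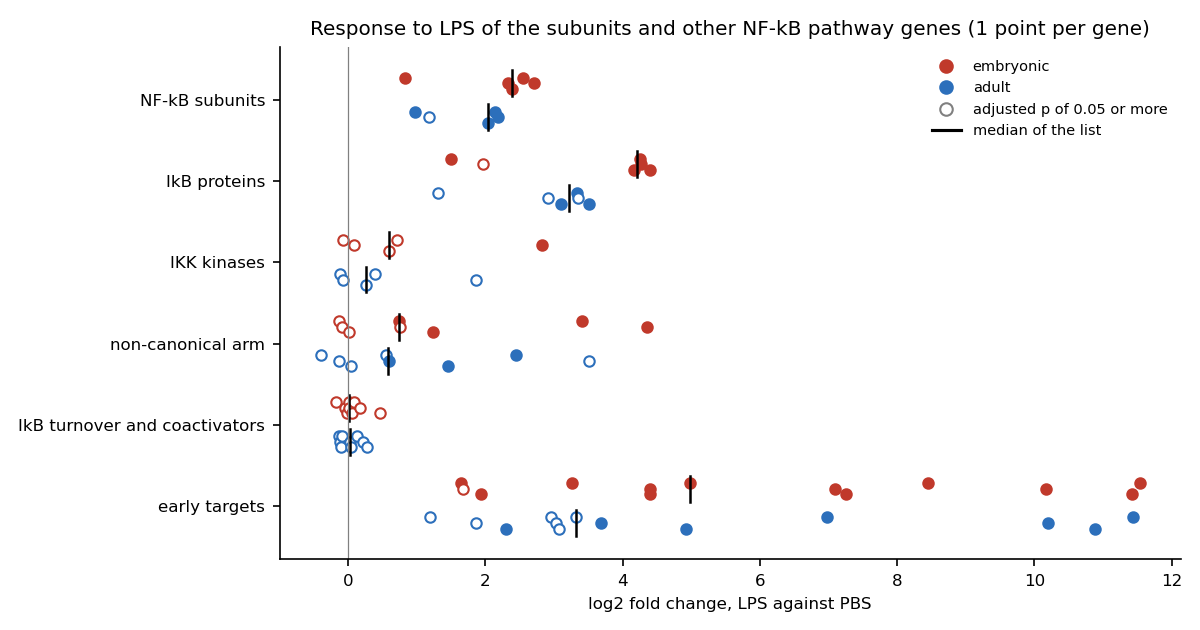
Log2 fold change of LPS against PBS for each gene of the subunits and the 5 pathway lists, embryonic in red and adult in blue, with open symbols at adjusted p of 0.05 or more and black bars for medians. The turnover and coactivator genes lie between -0.18 and 0.47, the subunits between 0.83 and 2.71, and the early targets reach 11.5.

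The genes whose pattern was most like that of each subunit were found by the root mean square difference of log2 CPM over the 12 libraries, each gene centred on its own mean; all share the same libraries and their depth. Of all genes, Nfkb2 was nearest to Nfkb1 and Nfkb1 to Nfkb2, at 0.175. Outside the family, Plscr1, a phospholipid scramblase gene, came next for both at 0.296 and 0.295 and was nearest to Relb at 0.291. Tnip1, encoding a partner of the inhibitor A20, followed for Nfkb2 at 0.346 and for Relb at 0.402. Hivep2, a zinc finger gene, was among the nearest to Nfkb1 at 0.376 and Nfkb2 at 0.350, Ikbke to Nfkb1 at 0.376 and Birc3 to Relb at 0.403.

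Rel and Rela had other neighbours. Nearest to Rel were Ptprj, a receptor tyrosine phosphatase gene, at 0.338, the Toll-like receptor adaptor gene Myd88 at 0.390 and the ubiquitin ligase gene Peli1 at 0.415. Nearest to Rela were Rbbp8, a DNA end resection gene, at 0.153, the elongation factor gene Ell2 at 0.170 and the syntaxin gene Stx6 at 0.178. Low values are easier to reach for a gene that varies little, as Rela does, so these distances are not comparable between subunits.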

How the data were processed

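Poly(A)-selected, stranded, single-end mRNAseq gave 12 libraries from cultured stromal cells. Per the study's methods, the authors trimmed reads, mapped them with STAR to GRCm38.p6, kept unique alignments with at most 1 mismatch, and deposited raw counts per gene, 1 table per library, for both strands summed and for each alone. The counter and its annotation are not given in the sources used here. The column for the strand that holds most gene counts was used. The 4 rows for read classes were left out of library sizes and tests.

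Groups came from the titles of the samples. Genes with CPM above 0.5 in all libraries of at least 1 group were kept, 13038 of 23329. All 12 libraries entered 1 model of the 4 groups in edgeR 4.0.16 (R 4.3.3, TMM, quasi-likelihood test), adjusting over every tested gene. Standard errors were the absolute log2 fold change divided by the square root of F. DESeq2 1.42.0, other size factors, filters and thresholds, both strands together, each stage alone, the replicate block and each library left out were alternatives. Blocked fits with a culture left out were added after seeing the data. Log2 CPM used a prior count of 2. Exon lengths, strands and overlapping genes came from GENCODE M21 (GRCm38.p6), the longest transcript being one matched to a RefSeq accession. The positions of the members and the promoter windows came from RefSeq. Figures were drawn with matplotlib 3.10.9. The scripts were tested on simulated counts.

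Each group has libraries numbered 1 to 3 in the titles, which do not say that same-numbered LPS and PBS libraries came from 1 culture. Over 13038 genes, deviations from group means correlated at 0.710 to 0.784 in the 3 embryonic and at 0.610 to 0.850 in the 3 adult same-numbered pairs. These were therefore treated as paired within a stage in the replicate block, the pair differences and the sign flips. The main edgeR fit did not use this pairing. It gave the calls, standard errors and adjusted p-values wherever the block is not named. Same-numbered tables also share a prefix in their names in all 4 groups, whose meaning is not stated. Across stages the numbers were not taken as pairs. The p-values measure the spread between these cultures only.

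The members and gene lists were chosen with earlier results of these data known. Named genes are the 5 members, the genes with the 2 largest absolute changes in each pathway list and stage, and the 3 genes outside the family nearest to each member; the values of 1 gene that this rule names are not reported here. Marker lists came from general knowledge, and all 84 listed genes were found, Adgre1 under its older symbol. Protein sequences were not analysed here.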

Additional observations from a re-analysis of the deposited data

How the results depend on the processing

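With other size factors, DESeq2, filterByExpr or both strands together, 5 members in embryonic and 4 in adult stroma were called, and without a filter on low counts 4 and 4. At an adjusted p under 0.01, 3 were called in embryonic and 0 in adult stroma. Leaving out 1 library gave 3 to 5 in embryonic stroma (3 without adult LPS 3, adult PBS 3, embryonic LPS 3 or any embryonic PBS library) and 0 to 4 in adult stroma (0 without any adult PBS library). With the replicate block and 1 culture left out, the counts were 5 in embryonic stroma, 3 to 5 in adult stroma and 0 to 1 for the interaction, where Relb was called at 1.01 without embryonic replicate 2. Each stage fitted alone with the block called Rel in adult stroma (1.15) and lost Rela in embryonic stroma (0.82); the block in the 4-group model changed no call of a member.

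For the pathway lists in adult stroma, 13 genes called became 22 with DESeq2, 8 at an adjusted p under 0.01, 24 with the replicate block, 27 with the stage alone and the block, 3 to 19 with 1 library left out (3 without adult PBS 1 or 3, 4 without adult PBS 2), and 16 to 26 with the block and a culture left out (24, 23 and 26 without embryonic 1, 2 and 3, and 20 without adult 2). In embryonic stroma 22 became 14 to 23 (14 without embryonic PBS 1), or 25 to 27 with the block and a culture left out. Over all genes, the 358 called in embryonic stroma became 684 with DESeq2, 119 at an adjusted p under 0.01, 1636 with the block, 765 with the stage alone and 113 to 458 with 1 library left out. The 79 in adult stroma became 294, 16, 808, 1893 and 4 to 146, and the 0 of the interaction became 25 with DESeq2 and 110 with the block. The 532 of the stages with PBS became 1552 with DESeq2, 102 at an adjusted p under 0.01, 291 with the fold threshold, 891 with the block across stages and 152 to 641 with 1 library left out (lowest without adult PBS 3). The 692 with LPS became 1704, 96, 385, 1059 and 131 to 813 (lowest without adult LPS 3).

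The ratio of Rel to Rela, 0.72, passed only in the sign flips over same-numbered pairs, where the pair of adult replicate 3 was nearly tied. With the longest transcript as length, shares in adult LPS cells were 26.6% for Nfkb1, 28.9% for Nfkb2, 27.7% for Rela and 16.3% for Relb; Nfkb2 held 31.0% in embryonic LPS, 21.2% in embryonic PBS and 21.4% in adult PBS cells, and Rela 45.7% in adult PBS cells. The stricter motif left 1 member.

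Signs turned only in values that were not called. With 1 library left out, the interaction ranged from -0.23 to 0.44 for Nfkb1 and from -0.10 to 0.59 for Nfkb2, and the stage difference with LPS from -0.14 to 0.54 and from -0.23 to 0.45, each lowest without embryonic LPS 3. The stage difference with PBS ranged from -0.047 to 0.38 for Rel and from -0.15 to 0.025 for Rela, and that of Relb with LPS, -0.0028 as reported, from -0.20 to 0.21, and was 0.0060 with the replicate block across stages. With the block and a culture left out, the interaction turned to -0.13 or -0.020 for Nfkb1 and to -0.065 for Nfkb2, and Crebbp in embryonic stroma to 0.0088. The cause of these changes was not tested. The members held at least 51 counts in every library.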
